A study of Drosophila melanogaster with 4 samples.

Results

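Mitochondrial ribosomal protein genes, the nuclear genes for the proteins of the ribosome inside mitochondria, were taken as the genes whose symbol starts with mRpL or mRpS followed by a digit. There were 73 of them among the 17518 genes of the deposited table, 47 named for the large subunit and 26 named for the small subunit. All 73 passed the filter on low counts and entered the test.

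RNA with polyA tails was sequenced from GFP-positive cells of Drosophila melanogaster embryos at stage 11, labelled as embryonic muscle. The groups were homozygous salm[340] mutants, which carry a mutant allele of the zinc finger transcription factor gene spalt major (salm), and wild type (WT), with 2 libraries each. Both groups came from eggs laid over 3 h at 25 C and aged for 7 h. The labels do not give what drives the GFP, what the allele changes or the background of the WT line, and the series calls the replicates technical, so n counts libraries and p-values measure only the spread between them.

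Mitochondrial ribosomes make the few proteins that the mitochondrial genome encodes, which are core subunits of the respiratory chain and of ATP synthase. Their ribosomal RNAs are transcribed inside the organelle, but every ribosomal protein is encoded in the nucleus, made in the cytosol and imported. Part of the proteins belongs to families shared with the bacterial ribosome and part occurs only in mitochondria. In flies, a mutation of a small subunit gene, technical knockout (tko), is known for slowed development and seizures after mechanical shock.

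Counts over listed genes were 15170218 and 15668621 in the salm[340] libraries, against 21857295 and 20530119 in the WT libraries. Transcripts of the mitochondrial genome took 60.9% and 63.2% of the counts in salm[340] and 24.8% and 29.3% in WT, which left 5931283 and 5772320 counts for nuclear genes in salm[340] and 16444569 and 14519441 in WT. Levels are given as CPM, a gene's count divided by the library's total after TMM scaling and multiplied by 1000000, where TMM is a factor that sets the bulk of genes equal between libraries. The RNA of salm was higher in the libraries labelled salm[340] (95.5 ± 3.21 CPM) than in WT (25.2 ± 0.601, SD, n = 2 each), and since the labels do not describe the allele this does not check them. Of 14 markers of myoblasts and mesoderm, all were detected, with Mef2 averaging 276.0 CPM in salm[340] and 257.7 CPM in WT. Their summed level was 1840 and 2040 CPM in salm[340] and 1574 and 1615 CPM in WT. Of these 14, 6 were called higher (42.9%, against 10% of all tested genes), namely kirre, Him, zfh1, how, sns and rols. The marker blow was called lower, and 7 did not pass, Mef2 among them. Neural markers summed to 197.2 and 212.6 in salm[340] and 205.4 and 214.3 in WT. Of these 8, scrt was called higher (12.5%, background 10%), and wor and nerfin-1 lower (25%, background 7.16%). Epidermal markers summed to 631.0 and 656.4 in salm[340] and 511.6 and 519.1 in WT. Of these 6, cora was called higher (16.7%, background 10%), and crb and Nrx-IV lower (33.3%, background 7.16%). Their log2 fold change was above 0 in 3 and below 0 in 3, with a median of 0.0023. Without cora, left out after its value was seen, they summed to 253.9 and 264.9 in salm[340] and 300.8 and 308.1 in WT. Hemocyte markers summed to 69.5 and 77.8 in salm[340] and 79.0 and 84.3 in WT, and they moved in opposite ways, with PPO1 (log2 fold change 1.45) and PPO2 (1.297) called higher and Pxn (-1.22) lower. Fat body markers summed to 35.4 and 38.5 in salm[340] and 75.9 and 71.6 in WT, mostly Mtp, which was called lower (-1.32). Germ cell markers summed to 20.9 and 14.2 in salm[340] and 14.9 and 13.4 in WT, with osk at 0 in all 4 libraries. Among the 4 tested germ cell markers, vas was called higher (1.40, edgeR adjusted p = 0.0276). The part of cell makeup, mitochondrial share or depth in the differences below was not tested.

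The members collected 17319 and 15898 counts in the salm[340] libraries and 46597 and 40256 in the WT libraries. The median member had 183 and 177 counts in salm[340] and 510 and 448 in WT. The members summed to 1692 and 1563 CPM in salm[340] and to 1373 and 1333 CPM in WT. As a share of the nuclear counts, with no composition factor, they took 0.292% and 0.275% in salm[340] and 0.283% and 0.277% in WT. The summed CPM thus did not overlap between the lines, whereas the shares of nuclear counts did. In these pooled cells, fewer cells of a type and less RNA per cell cannot be told apart.

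Most members leaned toward higher levels in salm[340], and a minority passed the test. Of 73 members, 15 were called higher in salm[340] and 1 lower, while 57 did not pass (edgeR quasi-likelihood test, Benjamini-Hochberg adjusted p under 0.05 over 10738 genes). That is 20.5% higher, against a background of 10% of all tested genes, and 1.37% lower against a background of 7.16%. The log2 fold change was above 0 for 58 members and below 0 for 15, and its median was 0.27, a factor of 1.21, where all tested genes had a median of -0.012 and 49% above 0. In 39 members (53.4%, background 28.4%) both salm[340] libraries lay above both WT libraries, and in 7 (9.59%, background 30.7%) both lay below. Over all tested genes, the libraries of the lines did not overlap in 59.1%. The members' median lay between 0.23 and 0.42 above that of all tested genes in every setting tried. A change of scaling shifts all genes by nearly the same amount, so the scaling settings could hardly move this difference. Its ends, 0.23 and 0.42, came from the fits without salm[340] replicate 1 and without salm[340] replicate 2. The sign of the members' median itself depended on the scaling. It was -0.90 with library size alone, which moved all tested genes to a median of -1.20. With library size over nuclear genes alone it was 0.017, and all tested genes moved to -0.26.

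**Figure D1:**
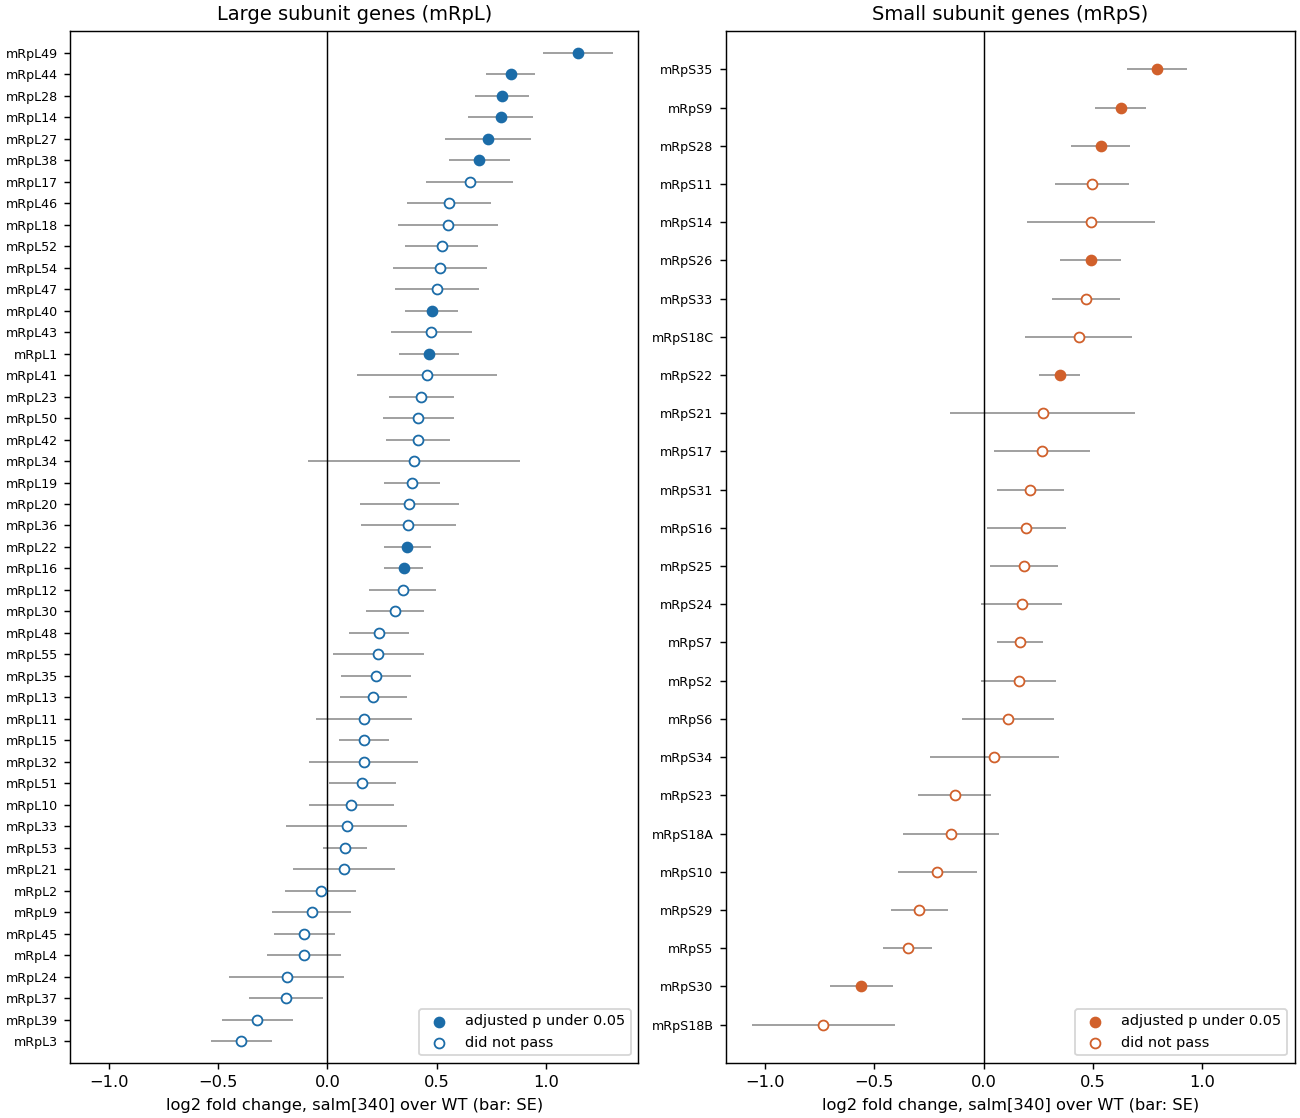
Log2 fold change of each of the 73 members, salm[340] over WT, with its standard error (horizontal axis), for the 47 large subunit genes on the left and the 26 small subunit genes on the right. Filled points passed at an adjusted p under 0.05, 15 to the right of 0 and 1, mRpS30, to the left, and all directions are relative to the bulk of genes and depend on the scaling.

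The calls rested on the spread between libraries. Without WT replicate 1 or without WT replicate 2, 0 members were called, and 14 of all tested genes were (11 and 9 members had an unadjusted p under 0.05 in the higher direction). Leaving out salm[340] replicate 1 or replicate 2 gave more calls in each direction than the 4 libraries, among members and all tested genes alike. The lone library is assumed in these fits to vary like the other line's pair.

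Among large subunit genes, 10 of 47 rose (21.3%, background 10% of all tested genes), 0 fell (background 7.16%) and 37 did not pass. Their median log2 fold change was 0.36. For the count of 0, DESeq2 also called 0 lower and 1 member was lower at an unadjusted p under 0.05 in edgeR. The gene with the largest rise was mRpL49 (X, 12907105 to 12907942, plus strand, BDGP6), whose protein occurs only in mitochondrial ribosomes. It had 37.3 and 27.3 CPM in salm[340] and 14.6 and 14.6 CPM in WT. The lower salm[340] library was still well above both WT libraries, which were nearly equal. The log2 fold change was 1.14 (SE 0.160, edgeR adjusted p = 0.00111), and mRpL49 was the only member with a change of at least 2-fold.

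The mitochondria-specific gene mRpL44 (3R, 5469463 to 5470636, minus strand), whose protein has a fold like that of RNase III and whose human counterpart is mutated in an infantile heart muscle disease, had 61.6 and 56.8 CPM in salm[340] and 35.6 and 30.7 CPM in WT. Its groups were separated by more than the range within either (log2 fold change 0.84, SE 0.110, edgeR adjusted p = 0.000792). Next came mRpL28 (2L, 4973976 to 4975316, plus strand), of a family shared with bacteria, with 42.2 and 36.3 CPM in salm[340] and 23.7 and 21.4 CPM in WT (log2 fold change 0.80, SE 0.124, adjusted p = 0.00206). For mRpL14 (X, 2343997 to 2344649, minus strand), whose bacterial counterpart lies at the interface of the subunits, the levels were 28.8 and 23.1 CPM in salm[340] and 15.1 and 14.8 CPM in WT (0.79, SE 0.149, adjusted p = 0.00560). In both mRpL28 and mRpL14 the groups stood apart, and the 2 salm[340] libraries differed more than the 2 WT libraries did.

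Smaller rises were seen in large subunit genes from several places in the ribosome. The gene mRpL27, whose bacterial counterpart reaches toward the site of peptide bond formation, had 11.8 and 13.4 CPM in salm[340] and 7.72 and 7.42 CPM in WT (log2 fold change 0.73). Genes for mRpL38 (0.69) and mRpL40 (0.48), mitochondria-specific proteins of the central protuberance in the human structure, averaged 27.9 ± 3.34 and 29.6 ± 0.487 CPM in salm[340] and 17.3 ± 0.966 and 21.2 ± 1.16 CPM in WT (SD, n = 2 each). A rise of 0.46 was measured for mRpL1, which forms a mobile stalk at the exit of transfer RNA in bacteria, with 25.1 and 26.3 CPM in salm[340] and 17.2 and 20.1 CPM in WT. The last calls were mRpL22, part of the exit tunnel in bacteria, at 0.36, and mRpL16 at 0.35. Adjusted p ranged in these 6 genes from 0.00785 for mRpL38 to 0.0455 for mRpL1 (edgeR). DESeq2 did not call mRpL27, mRpL40, mRpL1 and mRpL22 (adjusted p = 0.0616, 0.0673, 0.117 and 0.107), and with upper-quartile factors edgeR did not call mRpL1 and mRpL22 (adjusted p = 0.0599 and 0.0650).

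Of the large subunit genes that did not pass, 29 had a log2 fold change above 0 and 8 below 0. The stalk genes mRpL12 and mRpL10, whose products recruit translation factors, were among them. In flies mRpL12 is required for growth driven by Cyclin D and Cdk4. It had 49.4 and 35.0 CPM in salm[340] and 35.1 and 31.4 CPM in WT, so the groups overlapped, and its log2 fold change was 0.34 (SE 0.153, edgeR adjusted p = 0.159). At the other end stood mRpL3, which in bacteria lies near the catalytic centre, with 20.2 and 17.4 CPM in salm[340] and 23.8 and 25.6 CPM in WT (-0.39, SE 0.138, adjusted p = 0.0825). Both mutant libraries were below both WT libraries there, and it did not pass.

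**Figure D2:**
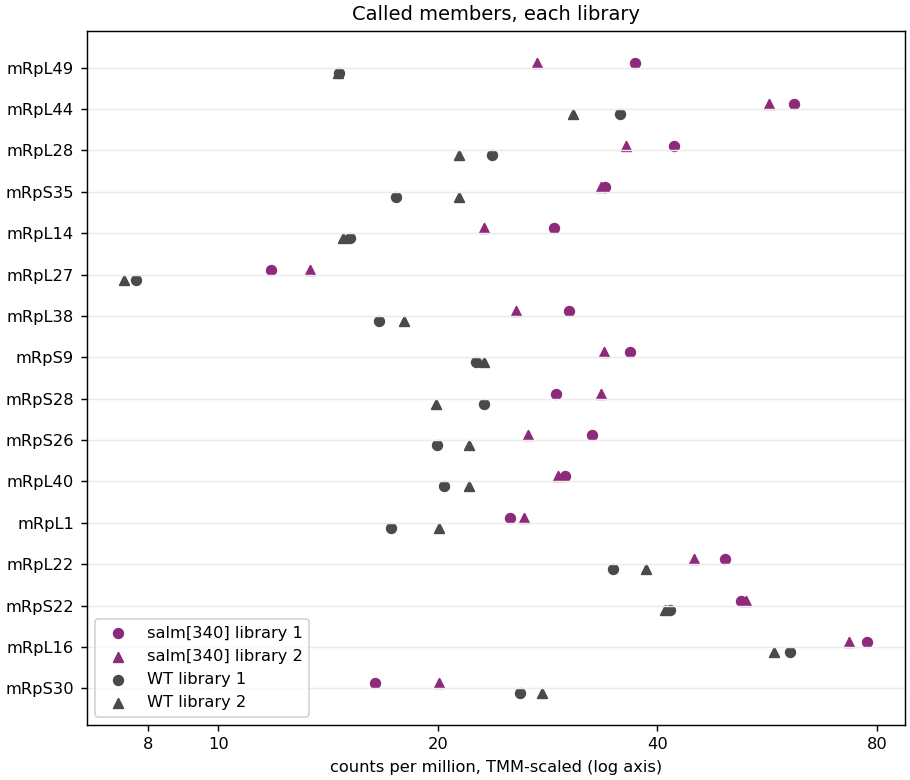
Level of the 16 called members in each library, in CPM after TMM scaling on a log axis, with salm[340] libraries in purple and WT libraries in grey (circle: replicate 1, triangle: replicate 2). The groups do not overlap in any of the 16, and mRpS30 is the one with salm[340] on the low side. These genes were picked by the test on the same libraries, and the groups do not overlap in 59.1% of all tested genes.

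Among small subunit genes, 5 of 26 rose (19.2%, background 10% of all tested genes), 1 fell (3.85%, background 7.16%) and 20 did not pass. Their median log2 fold change was 0.19. The largest rise was that of mRpS35 (3L, 2780899 to 2782105, plus strand), a mitochondria-specific protein, with 33.9 and 33.4 CPM in salm[340] and 17.5 and 21.4 CPM in WT. The mutant libraries nearly coincided and lay above both WT libraries (log2 fold change 0.79, SE 0.135, edgeR adjusted p = 0.00334). For mRpS9, whose bacterial counterpart touches transfer RNA in the ribosome, the levels were 36.7 and 33.8 CPM in salm[340] and 22.6 and 23.1 CPM in WT (0.63, SE 0.115, adjusted p = 0.00502). This value is uncertain as a single gene. Of its 1293 exonic bases, 325 (25.1%) are shared with ArgRS-m on the other strand, the gene for the mitochondrial arginyl-tRNA synthetase, which rose as well (0.76, adjusted p = 0.0104), and fragments there were counted for both.

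The other small subunit rises were mRpS28 (log2 fold change 0.54), mRpS26 (0.49) and mRpS22 (0.35), whose human counterpart is mutated in a mitochondrial disease. They averaged 31.2 ± 3.12, 29.5 ± 4.23 and 52.6 ± 0.590 CPM in salm[340], against 21.5 ± 2.32, 21.0 ± 1.499 and 41.3 ± 0.418 CPM in WT (SD, n = 2 each, edgeR adjusted p from 0.0238 to 0.0385). In all 3, which were picked by the test on these libraries, the libraries of the lines did not overlap, as in 59.1% of all tested genes. DESeq2 did not call mRpS26 and mRpS22 (adjusted p = 0.0764 and 0.0891), and with upper-quartile factors edgeR did not call mRpS26 (adjusted p = 0.0517).

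One member fell. The gene mRpS30 (X, 15786047 to 15788288, plus strand) had 16.4 and 20.1 CPM in salm[340] and 25.9 and 27.8 CPM in WT, and the groups did not overlap (log2 fold change -0.56, SE 0.142, edgeR adjusted p = 0.0251). Its protein carries a small subunit name, but structures of the human mitochondrial ribosome place it in the large subunit, as they do mRpS18A. With these members counted by the human structures, a choice made after seeing the data, the large subunit had 10 higher and 1 lower of 49. The small subunit then had 5 higher and 0 lower of 24 (DESeq2 0 lower, 3 lower at an unadjusted p under 0.05 in edgeR). Higher were 20.4% and 20.8% (background 10%), and lower were 2.04% and 0% (background 7.16%), in the large and small subunit. The medians were 0.35 and 0.20.

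Lower values that did not pass were found in other small subunit genes. For mRpS5, whose bacterial counterpart lies where messenger RNA enters, 53.4 and 67.4 CPM were measured in salm[340] and 76.5 and 77.1 CPM in WT (log2 fold change -0.35, adjusted p = 0.0617 in edgeR). The genes mRpS18A, mRpS18B and mRpS18C all encode relatives of bacterial S18. Their log2 fold changes were -0.15, -0.73 and 0.44, with standard errors of 0.219, 0.326 and 0.243, and none passed. The most negative value of all members, that of mRpS18B, rested on 66 and 32 counts in salm[340] against 245 and 264 in WT, and its 2 mutant libraries, at 6.45 and 3.15 CPM, differed by about as much as the lines.

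The large and small subunits were set side by side without a test of their difference. Large subunit genes summed to 1097 and 1024 CPM in salm[340] and 860.8 and 825.5 CPM in WT, and small subunit genes to 595.4 and 539.2 CPM in salm[340] and 512.0 and 507.9 CPM in WT. Per kilobase of exon, the mean large subunit gene was at 1.07 and 1.16 times the mean small subunit gene in salm[340] and at 1.04 and 0.992 times in WT. The small subunit median was the less stable value, at -0.024 without salm[340] replicate 1 and 0.36 without salm[340] replicate 2, where the large subunit median was 0.24 and 0.38. A split by origin was assigned from general knowledge of mitochondrial ribosomes and not from the deposited data. Families shared with bacteria had 8 of 46 higher (17.4%, background 10%) and a median of 0.25. They had 0 lower (background 7.16%, DESeq2 0 lower, 3 lower at an unadjusted p under 0.05 in edgeR). Mitochondria-specific proteins had 7 of 27 higher (25.9%), 1 lower (3.70%) and a median of 0.42. The difference between the origins was not tested either.

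Levels differed more between members than between lines. In CPM per kilobase of exon, a scale on which genes can be compared, the median member was at 23.2 and 21.1 in salm[340] and at 19.7 and 18.4 in WT. The 90th percentile was 3.45 and 4.40 times the 10th in salm[340] and 3.53 and 3.31 times in WT. Across the 73 genes, log2 levels in the lines had a Pearson correlation of 0.901 and a Spearman correlation of 0.890, a description of genes measured in the same libraries and divided by the same lengths.

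The highest level belonged to mRpL53, a mitochondria-specific protein, with 81.3 CPM per kilobase in salm[340] and 76.9 in WT. Its level is not its own alone, because all 829 of its exonic bases lie inside the exons of CG33155 on the same strand, and the log2 fold changes of both genes were 0.08. Next were mRpL16, with 70.1 in salm[340] and 55.1 in WT, and mRpL12, with 57.2 in salm[340] and 45.1 in WT. The lowest were mRpL24 (6.50 in salm[340], 7.39 in WT), mRpS18B (5.56 and 9.25) and mRpL21 (7.85 and 7.46). In terms of CPM, mRpL53 and mRpL21 had overlapping groups, as had mRpL24, so their order between the lines was not resolved.

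**Figure D3:**
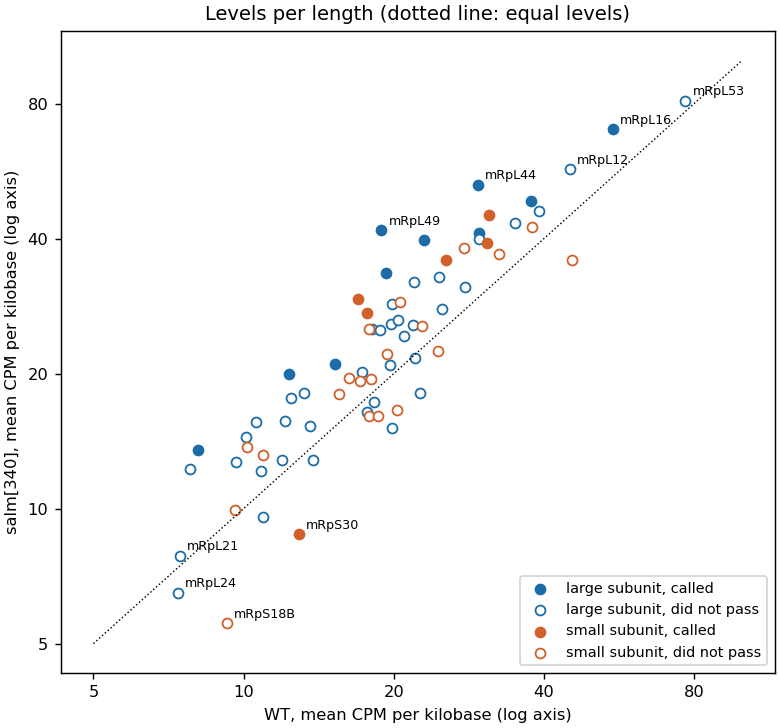
Mean level of each member in CPM per kilobase of exon, salm[340] on the vertical and WT on the horizontal log axis, filled where the change passed. The members spread over more than a factor of 10 along the diagonal, from mRpL24 (6.50 in salm[340], 7.39 in WT) to mRpL53 (81.3 in salm[340], 76.9 in WT), while most points lie just above the line of equal levels.

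Exons of 43 members overlap those of another listed gene, mostly on the opposite strand, and a fragment there was counted for both. Only 10 members share 10% or more of their exonic bases. Of these, 1, mRpS9, was called, in the higher direction (10%, the same as the background of 10%). The 30 members that share no base had 8 higher (26.7%, background 10%), 1 lower (3.33%, background 7.16%) and a median log2 fold change of 0.35. The called members among these 30 are mRpL49, mRpS35, mRpL14, mRpL27, mRpL38, mRpS26, mRpL40, mRpL22 and mRpS30. For mRpL44 the shared part is 9.27%, with POLDIP2, which was at 0.33 and did not pass.

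Fold changes differed between classes of exon length, with no steady trend over the members (Pearson r of -0.21 and Spearman rho of -0.13 between the log2 fold change and length across 73 genes of the same libraries, and 0.023 and 0.016 across all tested genes). Members of up to 800 bases had a median log2 fold change of 0.33 (40 genes, 4 higher, 0 lower), those of over 800 and up to 1200 bases 0.35 (21 genes, 7 higher, 0 lower) and longer ones -0.015 (12 genes, 4 higher, 1 lower). All tested genes of these lengths had medians of 0.23, -0.0048 and -0.038. Called higher were 10%, 33.3% and 33.3% of the members, against 15.6%, 9.02% and 9.28% of all tested genes of these lengths, and of those genes 3.18%, 6.04% and 8.03% were called lower. For both counts of 0 lower, DESeq2 gave 0, and 0 and 1 members were lower at an unadjusted p under 0.05 in edgeR. Short genes leaned higher in general, and the members of middle length were the ones farthest above all genes of their length. Of the 7 members with both salm[340] libraries below both WT libraries, mRpS30, mRpS5, mRpS29, mRpL37 and mRpL3 have more than 1200 bases of exon. The part of length in the members' values was not tested.

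**Figure D4:**
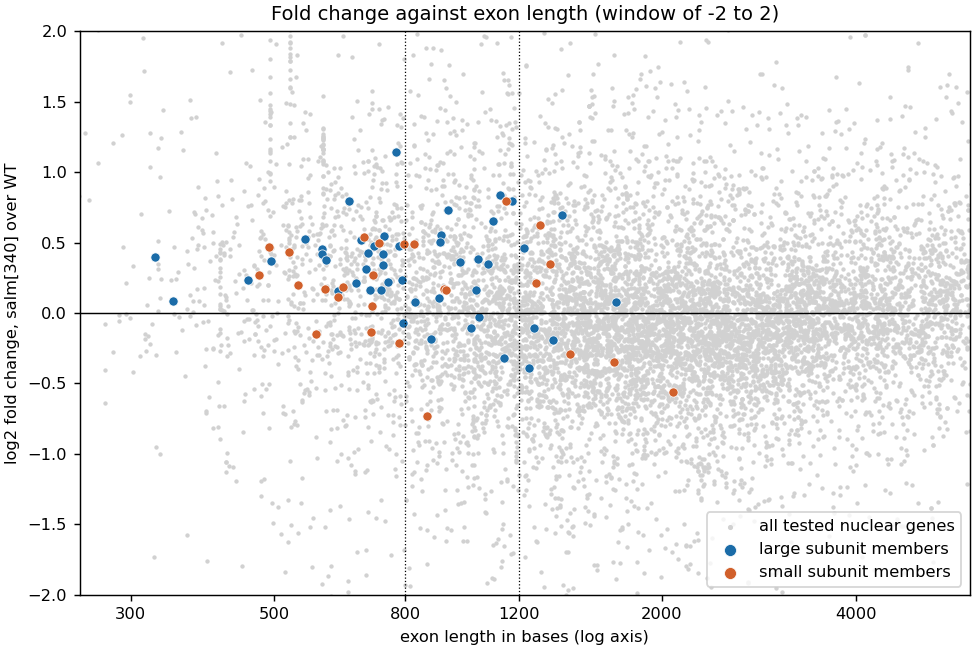
Log2 fold change, salm[340] over WT, against exon length in bases on a log axis, for large subunit members (blue), small subunit members (orange) and all tested nuclear genes (grey), with dotted lines at 800 and 1200 bases. Members of up to 800 bases sit mostly above 0 (median 0.33), and those over 1200 bases fall on both sides (median -0.015).

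Calls were more frequent among members with higher levels, as they were among all tested genes. Of 31 members with a mean of at least 20 CPM over the lines, 14 were higher and 1 lower, of 30 members between 10 and 20 CPM 1 was higher and 0 lower, and of 12 members below 10 CPM 0 passed (DESeq2 0 lower between 10 and 20 CPM and 0 in either direction below 10 CPM, unadjusted p under 0.05 in edgeR for 11 higher and 0 lower, and for 1 and 1). Of all tested genes, 21.6% were higher and 11.6% lower at 20 CPM or more, 6.89% and 8.29% between 10 and 20 CPM, and 3.77% and 3.96% below 10 CPM. The members' medians in these classes were 0.35, 0.23 and 0.22, and their median standard errors were 0.135, 0.182 and 0.271. The part of precision in these counts was not tested.

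The 2 salm[340] libraries differed more than the 2 WT libraries. Between salm[340] libraries 13 members differed by over 1.5 times (17.8%, against 27.7% of all tested genes), and between WT libraries 2 did (2.74%, against 8.29%). In salm[340], 47 of 73 members were higher in replicate 1. The widest gaps, picked after seeing the values, were in mRpL34 (64 and 21 counts in salm[340], 131 and 74 in WT), mRpS21 (95 and 33 in salm[340], 145 and 185 in WT) and mRpS14 (330 and 141 in salm[340], 541 and 509 in WT). None of these passed.

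The symbol rule does not match 4 further genes of mitochondrial ribosomal proteins or their relatives, and 0 of them passed in edgeR or DESeq2 (1 higher and 1 lower at an unadjusted p under 0.05 in edgeR). For tko, 9.28 and 9.93 CPM were measured in salm[340] and 7.10 and 7.29 CPM in WT (log2 fold change 0.42, SE 0.211, edgeR adjusted p = 0.214). The gene bonsai, for mitochondrial S15, which in flies is needed for a normal gut and growth, had 34.7 and 42.8 CPM in salm[340] and 29.8 and 29.1 CPM in WT (0.39, SE 0.124, adjusted p = 0.0560). The relatives of human PTCD3 and ICT1, CG4679 and CG6094, were at -0.57 (SE 0.175, edgeR adjusted p = 0.0517) and -0.19 (SE 0.296, adjusted p = 0.715). In tko and bonsai both salm[340] libraries lay above both WT libraries, as in 28.4% of all tested genes. For CG4679 both lay below, as in 30.7% of all tested genes.

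The RNA partners of these proteins differed far more. The large and small mitochondrial ribosomal RNAs, mt:lrRNA and mt:srRNA, were higher in salm[340] by 2.33 (SE 0.0925) and 2.47 (SE 0.114) on the log2 scale. In edgeR their adjusted p was 3.469e-07 for the large and 8.936e-07 for the small RNA. All 16 transcripts of the mitochondrial genome were higher, with a median of 2.60. The libraries were made from polyA RNA, and how well these transcripts were captured in each was not measured.

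Nuclear lists close to the members in function rose more often. Of 89 tested cytoplasmic ribosomal protein genes, 70 were higher (78.7%) and 1 lower (1.12%), with a median log2 fold change of 0.42. Of 68 nuclear subunits of the respiratory chain and ATP synthase, 40 were higher (58.8%) and 0 lower, with a median of 0.42 (DESeq2 0 lower, 0 at an unadjusted p under 0.05 in edgeR). The background was 10% higher and 7.16% lower among all tested genes. The median standard error was 0.069 in the cytoplasmic ribosomal list and 0.102 in the respiratory list, against 0.163 in the members. The difference between the lists, and the part of precision in it, were not tested.

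**Figure D5:**
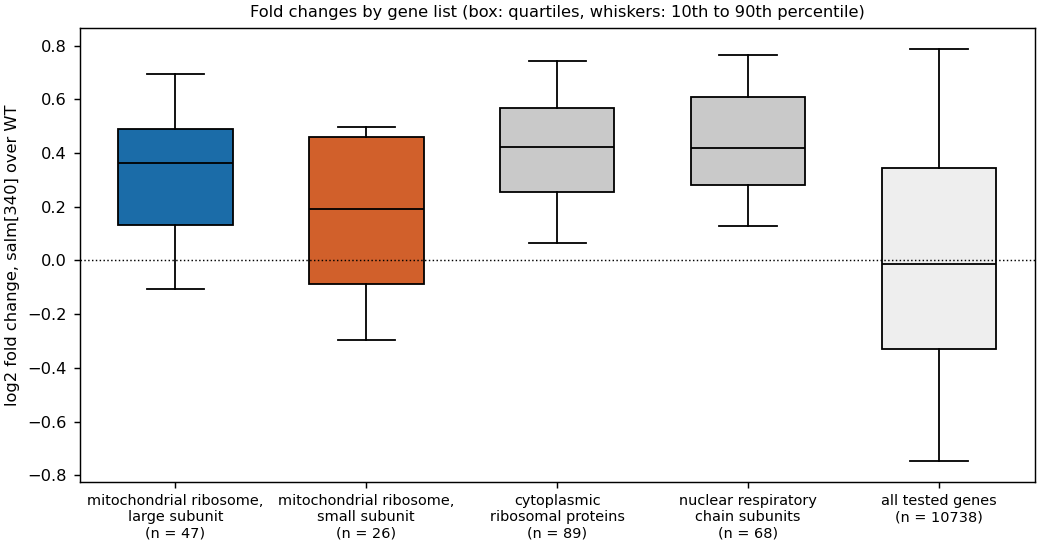
Log2 fold changes, salm[340] over WT, of the large and small subunit members, cytoplasmic ribosomal protein genes, nuclear respiratory chain subunits and all tested genes (box: quartiles with the median, whiskers: 10th to 90th percentile). Medians are 0.36 and 0.19 for the large and small subunit, 0.42 for each of the next lists and -0.012 for all tested genes, on TMM scaling.

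Other genes of mitochondrial gene expression did not move together. The background for the counts that follow is 10% higher and 7.16% lower among all tested genes. Of 11 mitochondrial translation factor genes, such as those for the elongation factors mEFTu1 and mEFTs, 0 passed in edgeR or DESeq2 (0 higher and 1 lower at an unadjusted p under 0.05), with a median of -0.034. Of 16 mitochondrial aminoacyl-tRNA synthetase genes, which load transfer RNAs, 3 were higher (18.8%) and 1 lower (6.25%, near the background), with a median of 0.044. The calls higher were ArgRS-m (22.2 ± 3.71 CPM in salm[340], 13.1 ± 0.182 CPM in WT), PheRS-m (0.405 on the log2 scale, adjusted p = 0.0118) and AspRS-m (0.53, adjusted p = 0.0148, edgeR). The one lower, named after its value was seen, was TrpRS-m (-0.91, adjusted p = 0.0456, edgeR), which DESeq2 did not call (adjusted p = 0.0995). Among 10 genes of mitochondrial DNA maintenance and transcription, 0 rose (DESeq2 0 higher, 0 at an unadjusted p under 0.05 in edgeR) and 1 fell (10%). The one that fell was the protease gene Lon, with 35.6 ± 3.01 CPM in salm[340] and 54.0 ± 1.24 CPM in WT (SD, n = 2 each, log2 fold change -0.60, edgeR adjusted p = 0.00368). Of 11 RNA processing genes and 3 assembly and ribosomal RNA factors, 0 passed in edgeR or DESeq2 (0 higher and 1 lower, and 1 higher and 0 lower, at an unadjusted p under 0.05).

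Among import genes and regulators, calls were made in both directions. Of 13 import and chaperone genes, 1 was higher (7.69%, background 10% of all tested genes) and 2 were lower (15.4%, background 7.16%). The other 10 did not pass. The small carrier gene Tim9a rose (40.9 ± 2.86 CPM in salm[340], 24.1 ± 2.15 CPM in WT, log2 fold change 0.76, edgeR adjusted p = 0.00219). The matrix chaperone genes Hsp60A and Hsc70-5 fell (-0.61 and -0.32, adjusted p = 0.00114 and 0.0152). Among 7 regulators of growth and mitochondrial biogenesis, 2 were higher (28.6%, background 10%) and 2 lower (28.6%, background 7.16%). Myc, a transcription factor that drives ribosome production and growth in flies, had 224.9 and 213.8 CPM in salm[340] and 68.6 and 75.9 CPM in WT, groups that were far apart (1.60, SE 0.0842, adjusted p = 2.092e-06). Its partner Max fell (-0.50, adjusted p = 0.00834), as did erect wing (ewg), the fly relative of human NRF1 (-0.68, adjusted p = 0.00422). The other rise, named after its value was seen, was that of cryptocephal (crc), the fly relative of ATF4 (0.32, edgeR adjusted p = 0.0156).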

How the data were processed

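The files hold raw counts of sequenced fragments per gene for 4 libraries. Per the submitters' processing notes, the tools named are cutadapt 2.4 and STAR 2.5.4b, and the build is BDGP6. Per the file headers, the authors counted fragments with featureCounts 2.0.1 on Ensembl BDGP6.32, release 104. Multi-mapping fragments and fragments over several genes were counted for each, at least 10 bases had to overlap, and strand was not used. The counts in the deposited table of genes and in the per-library files were equal. Exon lengths are those of the deposited table.

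Groups came from the titles. The salm[340] and WT groups were compared in 1 fit of the 4 libraries with edgeR 4.0.16 in R 4.3.3 (TMM, filterByExpr, quasi-likelihood test, no replicate block), adjusted over 10738 genes at 0.05. Standard errors were taken as the size of the log2 fold change over the square root of the F statistic. TMM factors were 0.675 and 0.649 in salm[340] and 1.55 and 1.47 in WT. DESeq2 1.42.0 was an alternative. The test was tried on simulated counts first.

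Members and lists were chosen with earlier results of these data known. In replicate pairs, the chi-square per degree of freedom over nuclear genes was 7.36 in salm[340] and 4.15 in WT, so the libraries of a pair differed beyond counting noise. Named by rule were up to 12 called members in each direction, the 3 highest and 3 lowest per length, the 4 ribosomal protein genes outside the symbol rule and up to 3 called genes of each list. Other genes were named after their values were seen. List entries matched by symbol, and 5 by a synonym.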

Additional observations from a re-analysis of the deposited data

How the results depend on the processing

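The number of calls followed the libraries and the scaling, while the members' median stayed above that of all tested genes in every setting (by 0.23 to 0.42 on the log2 scale). The scaling settings could hardly move that difference, because they shift all genes nearly alike. Leaving out each library in turn gave 0 to 35 members higher and 0 to 4 lower, 0 to 22 and 0 to 1 in the large subunit, 0 to 13 and 0 to 3 in the small, with medians of 0.18 to 0.38, 0.24 to 0.38 and -0.024 to 0.36. In those fits mRpL21 ranged from -0.36 without salm[340] replicate 1 to 0.39 without salm[340] replicate 2, and mRpL53 from -0.054 without salm[340] replicate 2 to 0.18 without salm[340] replicate 1.

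With library size alone, 0 members were higher and 68 lower (large 0 and 43, small 0 and 25). Of all 10738 tested genes, 84 were higher and 8277 lower. The medians of the members and the subunits were -0.90, -0.82 and -0.9997 in this setting. Values that turned negative there were mRpL49 -0.044, mRpL44 -0.36, mRpL28 -0.39, mRpS35 -0.40, mRpL14 -0.40, mRpL27 -0.46, mRpL38 -0.49, mRpS9 -0.56, mRpS28 -0.66, mRpS26 -0.70, mRpL40 -0.71, mRpL1 -0.73, mRpL22 -0.82, mRpS22 -0.84, mRpL16 -0.84, mRpL53 -1.11, mRpL12 -0.85, mRpL21 -1.11, tko -0.77, bonsai -0.80, ArgRS-m -0.43, PheRS-m -0.79, AspRS-m -0.67, Tim9a -0.43 and crc -0.88. This follows from the setting, which moved the median of all tested genes to -1.20. With library size over nuclear genes alone, chosen after seeing the data, 7 members were higher and 6 lower (large 5 and 2, small 2 and 4). Of all 10684 genes tested there, 604 were higher and 2196 lower. The medians were 0.017, 0.11 and -0.059, mRpL53 was at -0.17 and mRpL21 at -0.18.

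With upper-quartile factors 2 members were lower, both in the small subunit, and 900 of all 10738 tested genes. The medians were 0.24, 0.33 and 0.15. DESeq2 called 9 members higher (large 6, small 3) and 1 lower, and of all 10738 tested genes 927 higher and 516 lower. Without a filter on low counts 4 members were lower (large 1, small 3), with medians of 0.24, 0.33 and 0.15, and 1208 of all 14972 genes were lower. Among members that share no exonic base, 8 of 30 were higher (large 6, small 2), with medians of 0.35 overall and 0.11 in the small subunit. By the human structures 1 large and 0 small subunit members were lower. Apart from these built-in effects the cause was not tested.

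The replicate numbers did not pair the samples (correlation of same-numbered deviations 0.0417 over 10738 genes). With the replicate block, 20 members were higher and 2 lower (2 in the small subunit), with a median of 0.24. Of all 10738 tested genes, 1238 were higher and 1018 lower with it. Size factors of DESeq2 in edgeR, robust dispersions and scaling without mitochondrial transcripts left the counts and medians of the members and of both subunits within 1.5 times or within the spread between replicates. Members with few counts limit what can be seen.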

Other observations

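The members lie scattered over the large chromosome arms, 12 on 2L, 12 on 2R, 17 on 3L, 21 on 3R and 11 on X. Called higher were 2 on 2L, the arm of salm, 1 on 2R, 2 on 3L, 5 on 3R and 5 on X, where the 1 gene called lower also lies. In that order these are 16.7%, 8.33%, 11.8%, 23.8% and 45.5% of the members, against 10% of all tested genes over all arms. The shares on 2R and 3L were near that background. On X 9.09% of the members were lower, against 7.16% of all tested genes. The median log2 fold change was 0.16 on 2L, 0.44 on 2R, 0.34 on 3L, 0.27 on 3R and 0.35 on X. A difference between arms was not tested.

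Some members sit against neighbours that gave other values in the same fit. The gene arm, which encodes beta-catenin and shares 82 bases with mRpL16, was at 0.22 and did not pass. Psn, the presenilin gene, shares 47 bases with mRpL15 and fell (-0.51, edgeR adjusted p = 0.0168), while mRpL15 was at 0.17. Naa15-16 shares 255 bases with mRpS14 and fell (-0.38, edgeR adjusted p = 0.0258), while mRpS14 was at 0.49 with widely differing mutant libraries. These neighbours were chosen after their values were seen.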
